A study of Mus musculus with 13 samples.

Results

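On mouse chromosome 5, 50 neighbouring genes from Pds5a to Srp72 surround Pdgfra, Kit and Kdr, 3 receptor tyrosine kinase genes that lie side by side. The 50 genes are described here in 2 mouse models of basal cell carcinoma (BCC). They were chosen by name as a stretch in which transplanted and genetically induced tumors differed, so the difference between the models in these genes is a description and carries no p-value. All 50 had a value in every tumor, out of 16687 such genes among the 21100 in the table. Of these 50, 44 reached at least 10 counts in at least 4 tumors and were included among the 14390 genes compared. The 6 below that minimum were Nsun7, Shisa3, Yipf7, Txk, Lrrc66 and Nmu.

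RNA was sequenced from 13 tumors of female mice. The 9 GEM-BCC tumors (GEM1 to GEM9) arose in the dermis of 7 Ptch1+/- K14-CreER2 p53fl/fl mice after 3 tamoxifen injections of 300 µg each and a single X-ray dose of 4 Gy. In these mice the K14 promoter limits Cre to basal keratinocytes. A single mouse gave both GEM2 and GEM3, and another gave GEM7 and GEM8. Transplanted tumors, of which there were 4 (TP1 to TP4, the Tp-BCC model), grew under the skin of the right flank of 4 Ptch1+/-p53fl/fl mice, 1 tumor a mouse, after inoculation of 2000000 tumor cells. All 4 descend from a single GEM-BCC tumor, so they are repeats of 1 tumor line. Both models carry the Ptch1 and p53 alleles, and the label of the host mice names no Cre. Every GEM-BCC tumor was in batch 1 and every Tp-BCC tumor in batch 2, so batch, model and tumor line cannot be told apart.

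Receptor tyrosine kinases bind a secreted or membrane-bound ligand outside the cell and switch on signalling cascades such as RAS and ERK inside it. Kit is the receptor for stem cell factor (Kitl) and is known in skin from melanocytes and mast cells. Pdgfra, the receptor for platelet-derived growth factors, marks dermal fibroblasts, and Kdr, the receptor for Vegfa, marks endothelial cells. Their neighbours are unrelated genes for purine synthesis, RNA processing, membrane traffic and the cytoskeleton. Basal cell carcinoma itself is driven by Hedgehog signalling, which Ptch1 restrains and Gli factors carry out.

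The 250 bases before the RefSeq starts of the 3 receptor genes, and of the purine synthesis gene Paics, are shown because the results turn on these genes. The sequences are from the GRCm38.p6 build, whereas the counts were made on GRCm39. They are written 5′ to 3′ on the strand of the gene, and capitals mark the E-box CACGTG, a site read by factors such as Myc and Clock.
Pdgfra (chr5:75152001-75152250, plus strand): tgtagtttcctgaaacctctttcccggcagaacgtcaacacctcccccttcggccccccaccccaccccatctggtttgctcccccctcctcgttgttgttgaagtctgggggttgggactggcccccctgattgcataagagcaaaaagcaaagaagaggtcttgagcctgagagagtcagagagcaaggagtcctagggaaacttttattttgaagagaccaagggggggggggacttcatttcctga
Kit (chr5:75574737-75574986, plus strand): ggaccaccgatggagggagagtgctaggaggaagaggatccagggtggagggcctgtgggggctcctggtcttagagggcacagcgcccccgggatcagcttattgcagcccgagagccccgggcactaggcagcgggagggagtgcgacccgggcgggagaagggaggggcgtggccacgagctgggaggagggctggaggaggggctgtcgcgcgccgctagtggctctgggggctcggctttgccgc
Kdr (chr5:75978456-75978705, minus strand): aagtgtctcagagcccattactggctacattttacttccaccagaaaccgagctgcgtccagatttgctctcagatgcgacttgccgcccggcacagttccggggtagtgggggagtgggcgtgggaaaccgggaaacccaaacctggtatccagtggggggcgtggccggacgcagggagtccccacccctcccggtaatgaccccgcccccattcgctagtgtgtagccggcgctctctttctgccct
Paics (chr5:76951052-76951301, plus strand): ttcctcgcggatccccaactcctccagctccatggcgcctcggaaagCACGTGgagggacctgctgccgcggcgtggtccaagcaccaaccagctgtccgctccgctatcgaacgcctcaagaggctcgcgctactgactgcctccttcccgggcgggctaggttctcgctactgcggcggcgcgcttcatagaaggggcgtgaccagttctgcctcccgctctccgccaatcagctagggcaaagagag

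G and C made up 70.8% of the Kit sequence, with 17 CG pairs, against 54.4% and 4 CG pairs for Pdgfra. The Kdr sequence held 61.6% G and C with 16 CG pairs. RefSeq promoters of 300 bases (250 before and 50 after the start) were matched for 48 of the 50 genes and searched on both strands. These genes have 62 promoters in the table, of which 10, from 7 genes (Commd8, Scfd2, Lnx1, Srd5a3, Nmu, Exoc1 and Paics), held CACGTG, against 7.15% of all 32851 promoters and 8.09% of all 27025 genes. GACCACCCA, the core site of Gli factors, lay in none of the 62 and in 0.253% of all promoters. The 62 had a median of 61% G and C, against 52.4% over all promoters, and the shares were not matched for this. The 2 motifs share no overlap, and a match describes letters and does not show binding.

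Kit differed most clearly between the models. Its level, in counts per 1000000 counts of a library (CPM), ran from 2.51 through a median of 3.99 to 7.14 in the GEM-BCC tumors. In the Tp-BCC tumors it was 65.3 CPM in TP1, 150 in TP2, 88.0 in TP3 and 60.5 in TP4. The lowest Tp-BCC tumor therefore lay far above the highest GEM-BCC tumor. The group means were 4.55 ± 1.72 CPM (SD, n = 9) and 91.0 ± 41.3 CPM (SD, n = 4). The log2 fold change of Tp-BCC over GEM-BCC was 4.32 (SE 0.31), and it ran from 3.93 to 4.45 when each tumor was left out in turn.

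Pdgfra was uneven among the transplanted tumors. GEM-BCC tumors ran from 181 through a median of 211 to 399 CPM. TP1 had 1562 CPM, TP2 750.0, TP3 1552 and TP4 245 CPM. Thus 3 transplanted tumors lay above every induced tumor, while TP4 lay within the range of the induced tumors. The log2 fold change was 2.14 (SE 0.35).

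Kdr was higher by a smaller amount. GEM-BCC tumors ran from 9.19 through a median of 18.7 to 36.7 CPM. TP1, TP2 and TP3 had 53.3, 57.4 and 51.4 CPM, all above the induced tumors, and TP4 had 30.5 CPM, within their range. The log2 fold change was 1.26 (SE 0.31).

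Per kilobase of transcript, the order of the mean levels was Pdgfra, Kdr and Kit in GEM-BCC tumors, at 81.2, 3.39 and 0.870 CPM per kilobase. In Tp-BCC tumors it was Pdgfra at 357, Kit at 17.4 and Kdr at 8.13 CPM per kilobase. Kit and Kdr thus changed places, and Pdgfra stayed first in both.

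**Figure D1:**
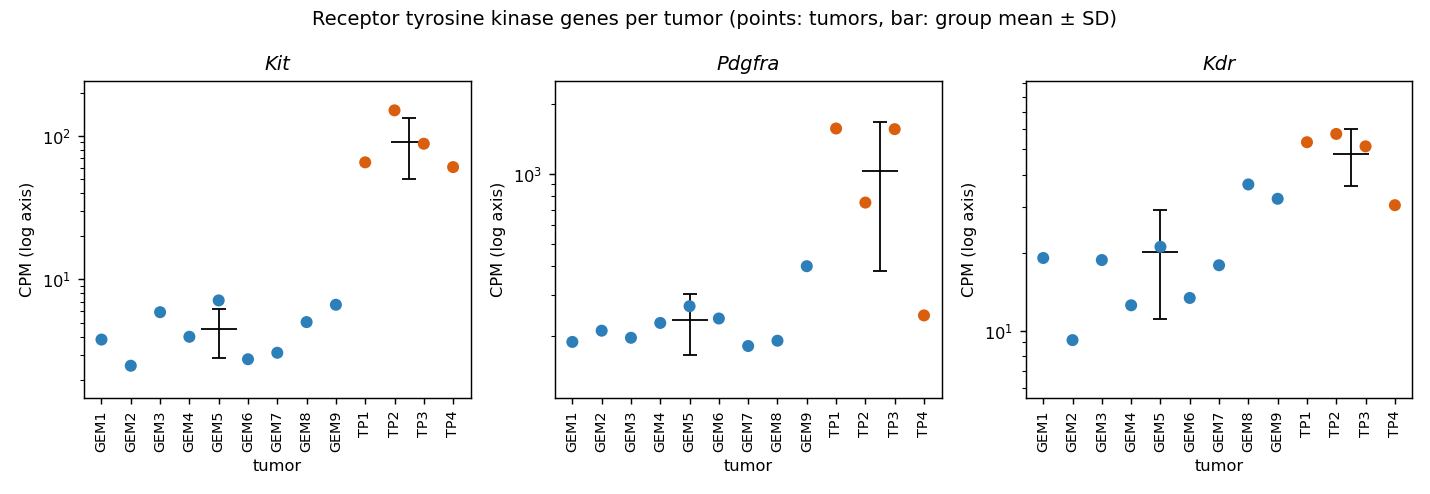
Level of Kit, Pdgfra and Kdr in each tumor, in CPM on a log axis, with GEM-BCC tumors in blue, Tp-BCC tumors in orange and black bars for the group mean and SD. All 4 Tp-BCC tumors exceed every GEM-BCC tumor for Kit, whereas TP4 (245 CPM for Pdgfra and 30.5 CPM for Kdr) falls among the GEM-BCC tumors for the other two.

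Over the whole stretch, 35 of the 44 genes had a log2 fold change above 0 (79.5%, against 48.6% of all genes compared). Their median was 0.72, against −0.03 over all genes. Of the 15 compared genes nearest to the stretch on each side, 11 before it and 12 after it were also above 0. Log2 fold changes above 1 were found for 16 members, and 17 lay within 0.5 of 0. For 9 genes every Tp-BCC tumor was above every GEM-BCC tumor, a pattern seen in 5.5% of all genes: Limch1, Ociad1, Spata18, Scfd2, Fip1l1, Chic2, Kit, Srd5a3 and Tmem165. Bend4 alone showed the opposite pattern. The study's limits (adjusted p below 0.05 and a log2 fold change beyond 2) were applied to edgeR fold changes, without the shrinkage used in the study. At these limits 5 members were called higher, beside 2.36% of all genes, and 1 lower, beside 3.21%. Since this contrast chose the genes, nothing is read from these counts. The median rests in part on TP3, without which it was 0.43, with 27 of 43 genes above 0.

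The transplanted tumors did not show the stretch alike. Relative to the GEM-BCC mean of each gene, the median of the 44 genes on the log2 scale was 0.97 in TP1, 0.10 in TP2, 1.15 in TP3 and −0.22 in TP4. In GEM-BCC tumors it ran from −0.21 to 0.33. TP1 and TP3 were above all induced tumors for 31 and 35 of the 44 genes, beside 16.4% and 19.5% of all genes compared, and TP2 for 20, beside 25.3%. TP4 was above them for 13 members and below them for 15, shares near those of all genes in that tumor (27.9% and 32.98%).

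These differences among the transplanted tumors moved with the base composition of the transcripts. Over 14282 genes, the rank correlation between a tumor's relative log2 CPM and transcript GC content was 0.55 in TP2 and 0.55 in TP4, but −0.19 in TP1 and −0.29 in TP3. In GEM-BCC tumors it ran from −0.21 to 0.48, highest in GEM1. Transcripts of the stretch were poorer in GC than most, with a median of 47.5% against 51.3% over all genes. Among the 22 members of lowest GC content the median relative level was 0.88, −0.19, 1.15 and −0.65 in TP1 to TP4. Among the other 22 it was 1.11, 1.38, 1.18 and 0.71, above 0 in all 4 tumors.

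When the trend with GC content was removed from each tumor (a lowess curve), the 4 transplanted tumors drew together. The block medians became 0.89, 1.19, 0.92 and 1.05 in TP1 to TP4, a mean of 1.01 ± 0.14 (SD, n = 4), against a range of −0.35 to 0.27 in GEM-BCC tumors. The median log2 fold change was then 0.94, and 39 of 44 genes were above 0. Every Tp-BCC tumor then exceeded every GEM-BCC tumor for 17 members, beside 8.64% of all genes, and the median SD of a member over the transplanted tumors dropped from 0.77 to 0.47 on the log2 scale. The correction is a smooth curve over all genes. That SD became smaller for 31 of the 44 members, and other members were driven apart. Chic2, for example, ran from 0.76 to 1.36 in the transplanted tumors before the correction and from 0.42 to 2.75 after it. What produced the trend with GC content was not tested.

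**Figure D2:**
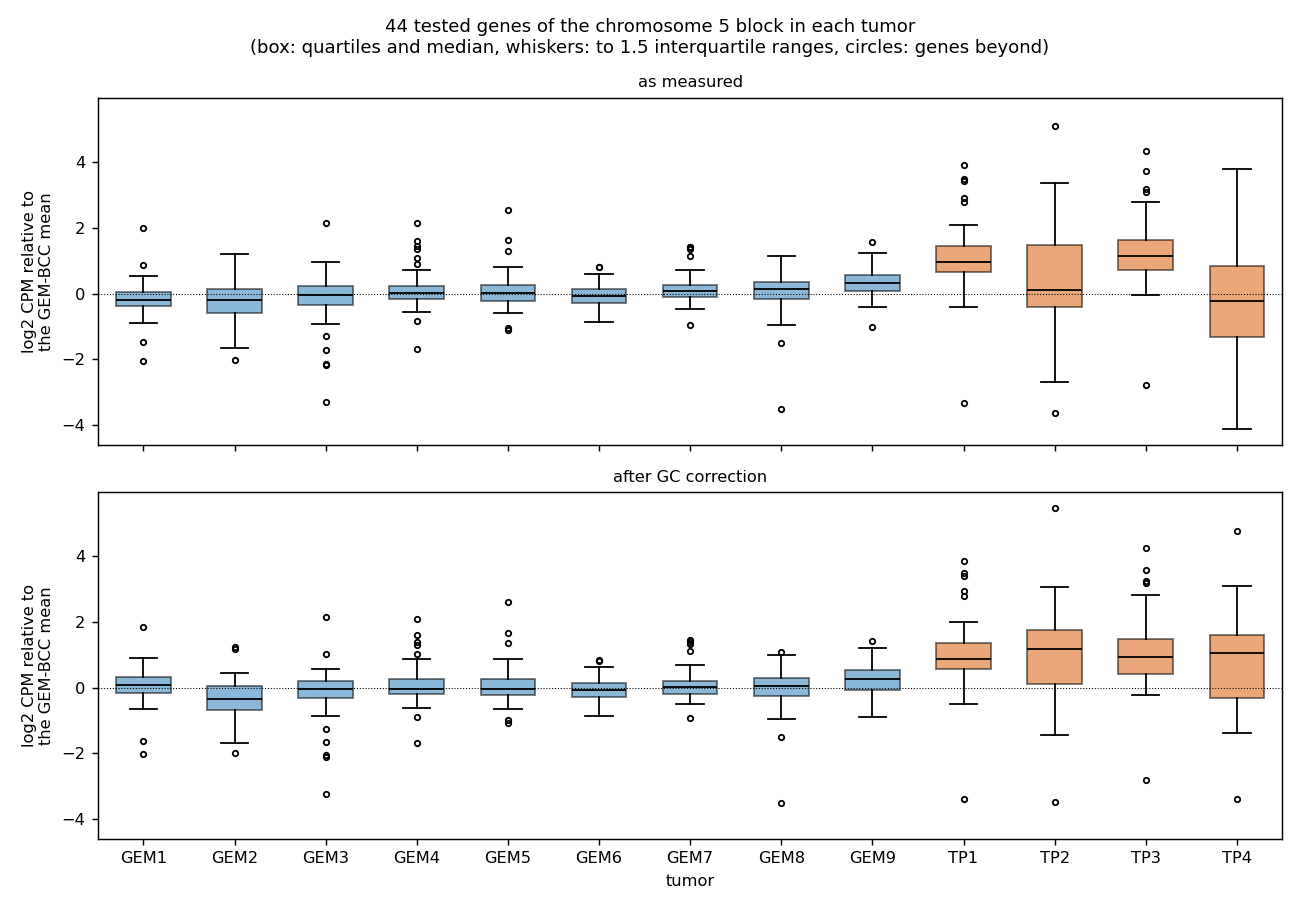
Log2 CPM of the 44 compared genes of the stretch in each tumor, relative to each gene's GEM-BCC mean, as measured (top) and after removing each tumor's trend with transcript GC content (bottom); boxes show quartiles and the median, and circles single genes beyond the whiskers. As measured, the medians of TP2 (0.10) and TP4 (−0.22) lie among the GEM-BCC tumors, and after correction all 4 Tp-BCC medians lie between 0.89 and 1.19.

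The receptor genes kept their direction after that correction. GC-corrected relative levels of Kit were 3.85, 5.48, 4.27 and 4.79 on the log2 scale in TP1 to TP4. For Pdgfra they were 2.79, 1.59, 2.82 and 0.33, so TP4 still stood low. For Kdr they were 1.49, 1.79, 1.45 and 1.42, and the 4 transplanted tumors then exceeded every induced tumor.

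Along the chromosome the difference was not even. Divided into 3 runs after the values were seen, the 13 compared genes from Pds5a to Yipf7 had a median log2 fold change of 0.23, the 19 from Commd8 to Chic2 a median of 1.00 and the 12 from Pdgfra to Srp72 a median of 0.66. After GC correction the medians were 0.30, 1.19 and 0.82, with 9 of 13, 18 of 19 and 12 of 12 genes above 0. The first run was thus mixed, and nearly all genes of the other two were higher in the transplanted tumors.

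**Figure D3:**
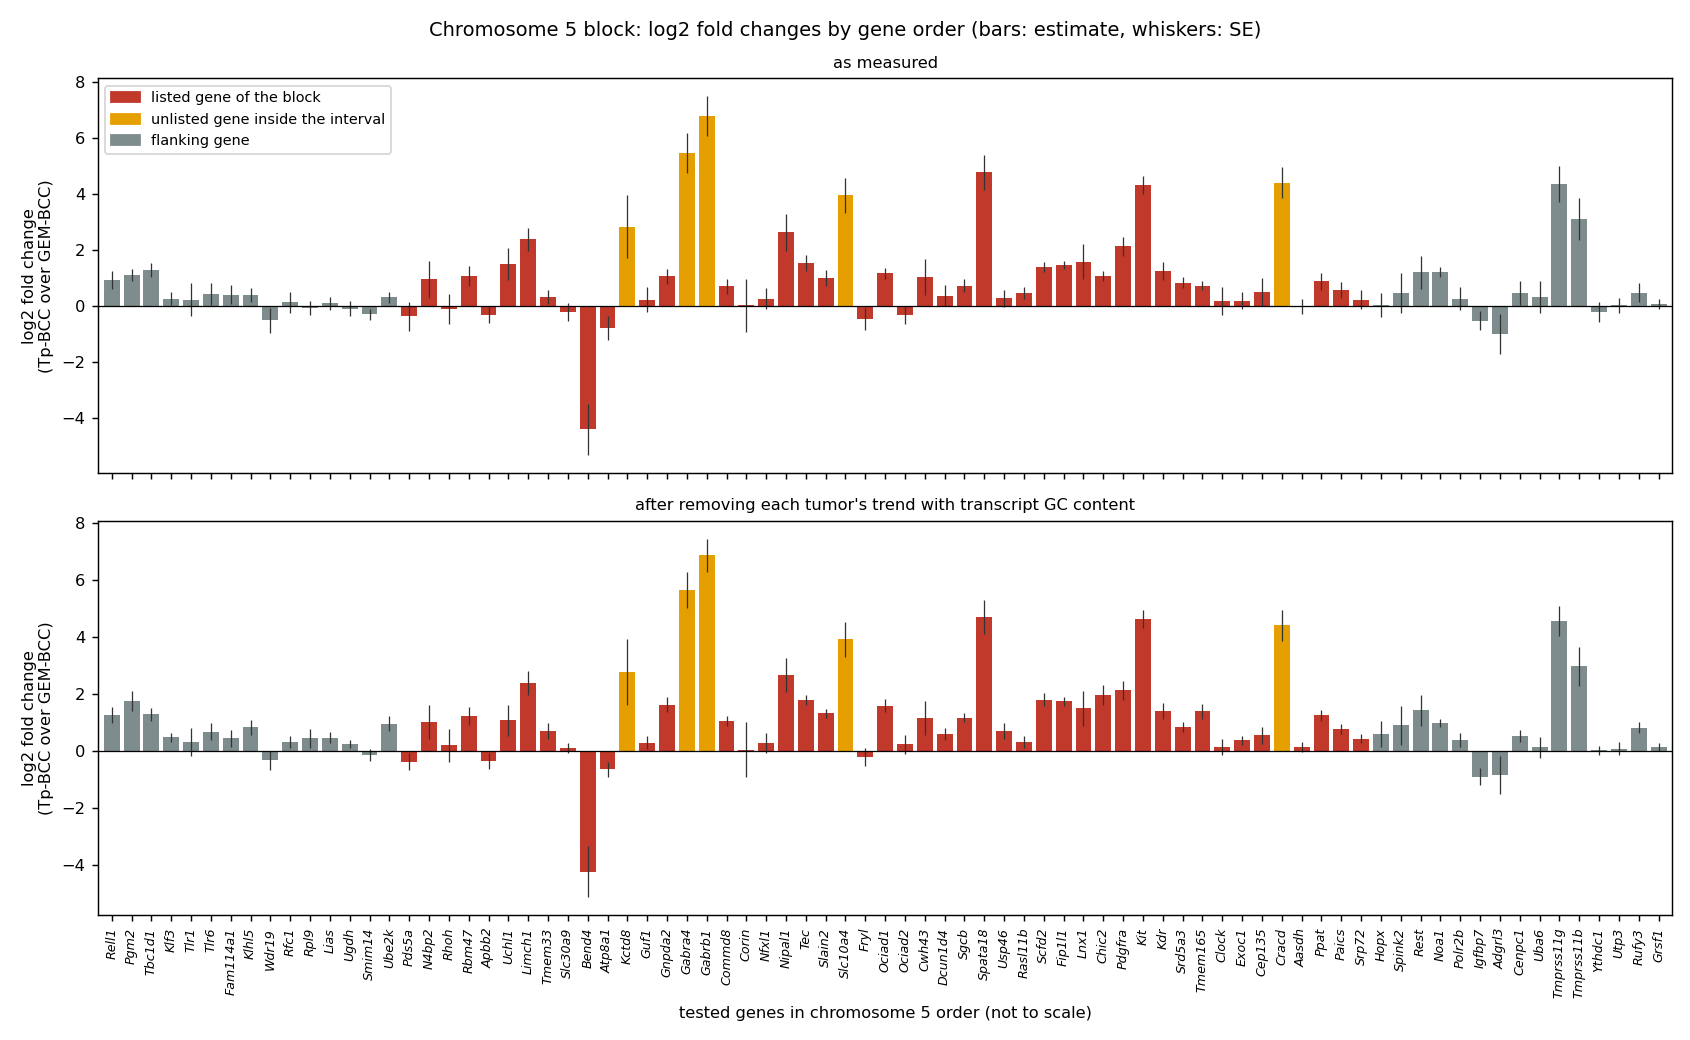
Log2 fold change of Tp-BCC over GEM-BCC (bars, with SE as whiskers) for each compared gene in chromosome order, as measured (top) and after GC correction (bottom), with the listed genes in red, unlisted genes inside the interval in orange and 15 flanking genes on each side in grey. Spata18, with at most 2 counts in any GEM-BCC tumor, and the other nearly silent genes have fitted values that depend on the prior count. Genes from Commd8 to Chic2 are almost all above 0, Bend4 is the deepest negative bar, and Gabra4, Gabrb1, Slc10a4, Cracd and Kctd8 are the orange bars.

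The remaining high and low members are given by what they do. Spata18, which takes part in mitochondrial quality control and responds to p53 in other cells, was nearly silent in the induced tumors, with 0 to 2 counts each. TP1 to TP4 had 17, 15, 13 and 12 counts. Against a floor of 3 counts in each GEM-BCC tumor, Spata18 was at least 9.36-fold higher in the transplanted tumors. Its level stayed low even there, at 0.900 ± 0.102 CPM (SD, n = 4).

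Limch1, an actin-binding activator of nonmuscle myosin, ran from 3.74 through a median of 6.16 to 15.5 CPM in GEM-BCC tumors. In TP1 to TP4 it had 60.2, 38.4, 72.0 and 18.6 CPM, all above the induced tumors. The log2 fold change was 2.39 (SE 0.41). Nipal1, a magnesium transporter gene, was lower in level and less even. It ran from 0.109 through 0.526 to 1.71 CPM in GEM-BCC tumors and had 6.48, 1.54, 7.60 and 0.571 CPM in TP1 to TP4. TP2 and TP4 overlapped the induced tumors, and the log2 fold change was 2.63 (SE 0.66).

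Bend4, a gene for a BEN-domain protein, went the other way. GEM-BCC tumors ran from 0.506 through a median of 2.63 to 11.2 CPM, whereas TP1 to TP4 had only 3, 2, 5 and 1 counts. The log2 fold change was −4.39 (SE 0.92), and all 4 transplanted tumors lay below all induced ones. Atp8a1, a phospholipid flippase of the cell membrane, had 7.18 to 12.6 CPM (median 8.52) in GEM-BCC tumors. TP1 to TP4 had 7.48, 2.51, 10.2 and 1.43 CPM, so TP2 and TP4 were below the induced tumors and the others within their range. Its log2 fold change was −0.78 (SE 0.42). Fryl, a large protein related to the fly gene furry, had 64.6 to 263 CPM (median 121) in GEM-BCC tumors and 112, 120, 127 and 44.3 CPM in TP1 to TP4, with a log2 fold change of −0.45 (SE 0.38). Only TP4 fell outside the range of the induced tumors for Fryl, and it lay within that range after GC correction.

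Of the 9 metabolic and mitochondrial genes, 7 were above 0 and 9 after GC correction. Ociad1, an endosomal and mitochondrial protein, had 290, 308, 263 and 328 CPM in TP1 to TP4 against 73.1 to 167 CPM in GEM-BCC tumors, with a log2 fold change of 1.18 (SE 0.19). The related gene Ociad2 had a log2 fold change of −0.31 (SE 0.30), within the spread between tumors. Ppat and Paics, neighbours that overlap on opposite strands and encode steps of purine synthesis, had log2 fold changes of 0.88 and 0.57. After GC correction these were 1.27 and 0.79, and every Tp-BCC tumor was above every GEM-BCC tumor for both. Gnpda2, an enzyme of amino sugar metabolism, had 1.07 and 1.64 before and after correction. Srd5a3, needed to make dolichol for protein glycosylation, was higher by 0.85 either way, and it is the single member with an estimated count that was not a whole number. Aasdh lay near 0 at −7.55e-05. Guf1, a factor of mitochondrial translation, had 0.23 but split the transplanted tumors. It had 27.8 and 41.4 CPM in TP1 and TP3 but 5.72 and 4.85 CPM in TP2 and TP4, against 9.99 to 21.6 CPM in GEM-BCC tumors.

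Of the 11 compared genes for transport and membranes, 9 were above 0. Scfd2, of the Sec1 family that handles vesicle fusion, had 38.7, 63.5, 43.3 and 49.6 CPM in TP1 to TP4 against 14.3 to 21.5 CPM in GEM-BCC tumors, with a log2 fold change of 1.40 (SE 0.18). The GEM-BCC tumors were closely alike for this gene and the groups lay well apart. Chic2, a membrane protein, had 57.7, 87.2, 62.7 and 84.1 CPM against 29.4 to 41.9 CPM. Tmem165, a Golgi ion transporter needed for glycosylation, had a log2 fold change of 0.74 (SE 0.15) with no overlap. Sgcb, a subunit of the sarcoglycan complex, and Commd8 had log2 fold changes of 0.72 and 0.71, and their groups separated after GC correction. Cwh43, which remodels lipid anchors, had a log2 fold change of 1.03 with an SE of 0.64 and overlapped. Exoc1, a subunit of the exocyst that tethers vesicles, Tmem33 of the endoplasmic reticulum and the zinc transporter Slc30a9 had log2 fold changes of 0.20, 0.32 and −0.20.

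Of the 8 compared nuclear and RNA genes, 6 were above 0. Fip1l1, a subunit of the cleavage and polyadenylation machinery, had the smallest SE of the 44 members. It had 227, 239, 255 and 218 CPM in TP1 to TP4 and 72.8 to 95.5 CPM in GEM-BCC tumors, a log2 fold change of 1.47 (SE 0.14). Fip1l1 overlaps Lnx1 on the opposite strand (the study's methods give a strand-specific setting for RSEM). Rbm47, an RNA-binding protein, had a log2 fold change of 1.09, and of 1.24 with separate groups after GC correction. Clock, a core gene of the circadian clock, split the transplanted tumors. It had 60.7 and 79.5 CPM in TP1 and TP3 but 5.59 and 8.00 CPM in TP2 and TP4, against 21.1 to 46.6 CPM in GEM-BCC tumors. Pds5a, a cohesin regulator, split them in the same way, with 127 and 169 CPM against 15.4 and 15.3 CPM. GC correction narrowed but did not close these gaps, leaving Clock at 0.68, −1.14, 0.79 and −0.63 on the log2 scale in TP1 to TP4. Srp72, N4bp2 and Nfxl1 had log2 fold changes of 0.24, 0.96 and 0.27, each overlapping between the models. Srp72 was split as well, with 348 and 366 CPM in TP1 and TP3 and 112 and 78.7 CPM in TP2 and TP4. Its GEM-BCC tumors had 157 to 252 CPM.

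Of the 6 compared signalling genes besides the receptors, 4 were above 0, and 5 after GC correction. Tec, a kinase best known from blood cells, had 48.9, 27.3, 53.5 and 14.5 CPM in TP1 to TP4 against 9.89 to 19.2 CPM in GEM-BCC tumors. After GC correction it lay between 1.61 and 1.96 on the log2 scale in all 4. Lnx1, a ubiquitin ligase of the Notch regulator Numb, had a log2 fold change of 1.59 (SE 0.62) and varied widely among the induced tumors. The Ras-like gene Rasl11b, the lymphocyte gene Rhoh, the cardiac protease Corin and the adaptor Apbb2 had log2 fold changes of 0.47, −0.09, 0.04 and −0.32, all overlapping.

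Of the 7 genes of the cytoskeleton and the ubiquitin system, 6 were above 0. Besides Limch1, Uchl1, a ubiquitin hydrolase of neurons, had a log2 fold change of 1.51 (SE 0.57), and of 1.10 after GC correction. Its groups overlapped, with 4.53, 12.3, 4.61 and 14.1 CPM in TP1 to TP4 against 1.10 to 10.5 CPM in GEM-BCC tumors. Slain2, which promotes microtubule growth, had a log2 fold change of 1.00 (SE 0.28). Slain2 lay between 1.26 and 1.5 in the 4 transplanted tumors after GC correction, above every induced tumor. Usp46, Dcun1d4 and the centriole gene Cep135 had log2 fold changes of 0.28, 0.38 and 0.51, each with overlapping groups. Cep135 had 11.6 and 22.0 CPM in TP1 and TP3, above the induced tumors (4.04 to 10.8 CPM). In TP2 and TP4 it had 2.57 and 1.71 CPM, below them.

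The 6 members below the count minimum had at most 21 counts in any tumor. Shisa3, which restrains Wnt and Fgf receptors, had 0 to 4 counts in the induced tumors and 3 to 21 in the transplanted ones. Nmu, a neuropeptide gene, had no counts in any GEM-BCC tumor and at most 3 in a Tp-BCC tumor. Nsun7, Yipf7, Lrrc66 and the T cell kinase Txk had at most 15, 4, 4 and 6 counts. No difference was detectable at this depth for these 4.

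**Figure D4:**
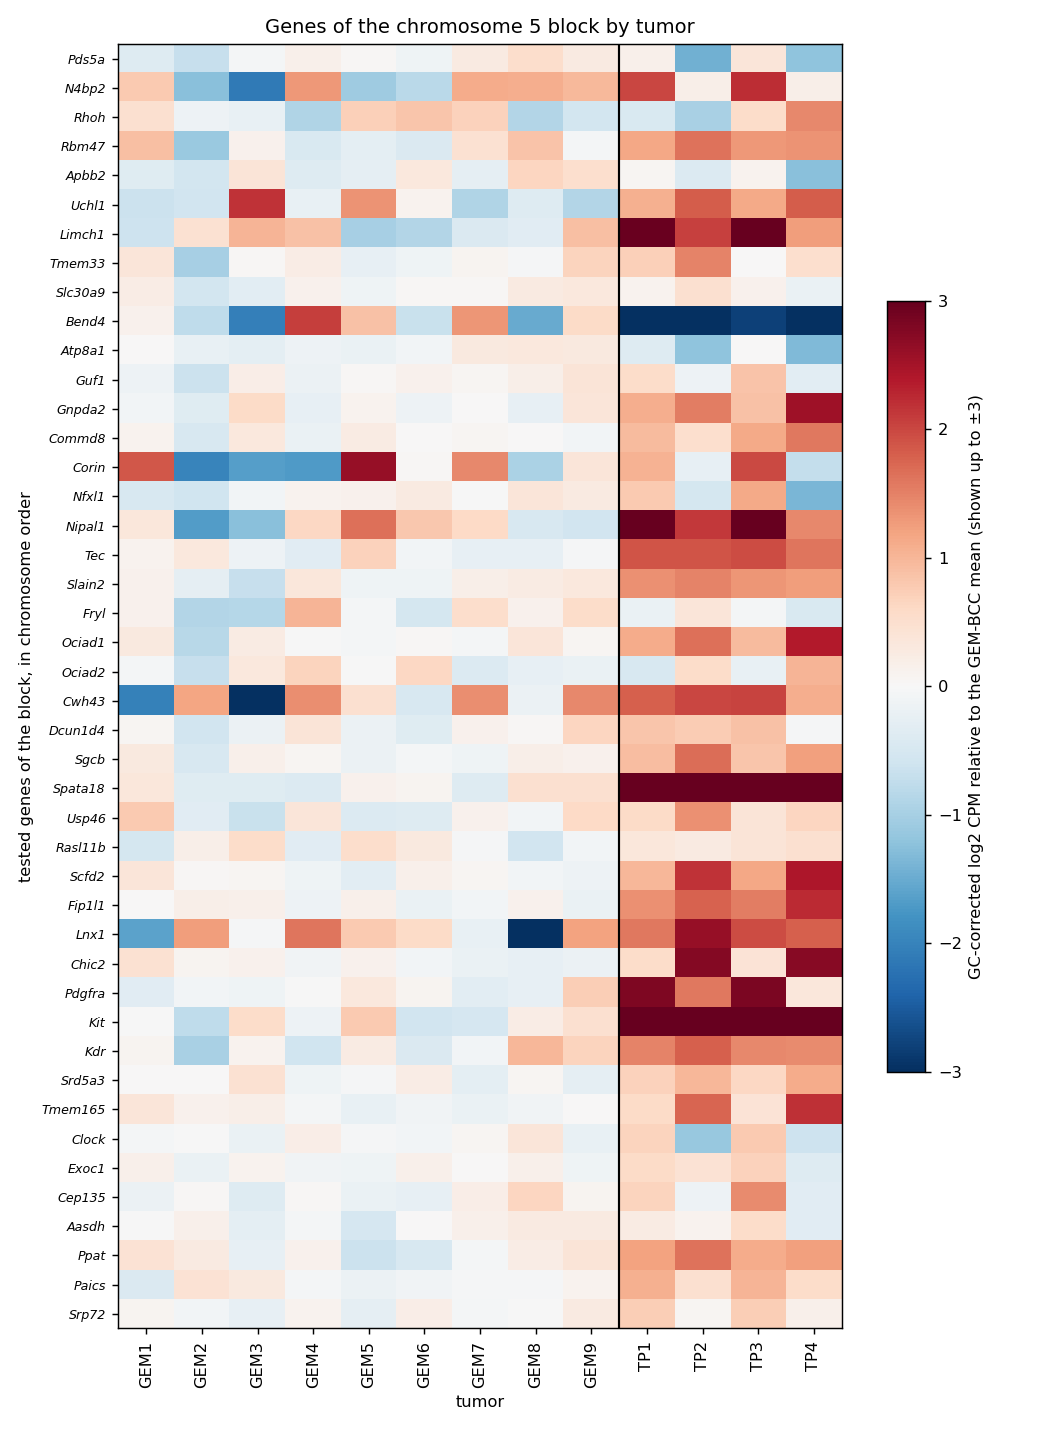
GC-corrected log2 CPM of each compared gene of the stretch, relative to its GEM-BCC mean, in every tumor (colour, shown up to 3 in either direction), with genes in chromosome order and a line between the GEM-BCC and Tp-BCC tumors. Kit and Spata18 are dark red in all 4 Tp-BCC tumors and Bend4 is dark blue. Clock is pale red in TP1 and TP3 (0.68 and 0.79) and blue in TP2 and TP4. Pds5a is blue in TP2 and TP4 (−1.43 and −1.21) and close to its GEM-BCC mean in TP1 and TP3 (0.16 and 0.36).

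The interval held 17 further genes of the table that are not on the list. Of these, 6 had no value in at least 1 model, 6 were below the count minimum and 5 were compared. The 5, all higher in Tp-BCC tumors, were low in the induced tumors, at no more than 4.53 CPM. Gabra4, a subunit of the GABA-A receptor, had 46.0, 10.7, 50.6 and 10.1 CPM in TP1 to TP4, against 0 to 1.84 CPM in GEM-BCC tumors. Its neighbour and partner subunit Gabrb1 had 9.18, 1.93, 16.1 and 2.21 CPM against at most 0.200 CPM. Both are genes of neurons, and the groups lay wholly apart. Cracd, a regulator of actin capping, had 41.3, 41.3, 51.4 and 26.2 CPM against 0.0897 to 4.53 CPM. Slc10a4, a vesicle transporter of neurons, had 18 to 28 counts in Tp-BCC tumors and 0 to 8 in GEM-BCC tumors, and Kctd8, which binds the GABA-B receptor, had 8 to 19 against 0 to 31, with overlap. The other 2 GABA-A receptor genes of the cluster, Gabrg1 and Gabra2, had no counts in any GEM-BCC tumor and at most 1 and 3 in a Tp-BCC tumor.

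Genes beyond the ends of the stretch were described in the same way. The 15 nearest compared genes before Pds5a had a median log2 fold change of 0.27 (0.49 after GC correction), and the 15 after Srp72 had 0.32 (0.55). After GC correction 13 of 15 were above 0 on each side, beside 39 of 44 in the stretch. On the near side of Pds5a, the ubiquitin-conjugating enzyme gene Ube2k had 0.32, and Tbc1d1, further out, had 1.31 (SE 0.25) with no overlap. After Srp72, Noa1, a mitochondrial GTPase gene, had 1.21 (SE 0.18) with no overlap, and the transcription repressor gene Rest had 1.21 (SE 0.59). The serine protease genes Tmprss11g and Tmprss11b had 4.37 and 3.11. High values thus occurred on both sides of the listed genes as well.

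Genes that act with the members but lie outside the stretch were tested in the same fit over all genes, with edgeR's quasi-likelihood test and Benjamini-Hochberg adjustment. Of 106 compared genes in 9 lists, 17 rose in Tp-BCC tumors and 6 fell at an adjusted p below 0.05. These counts stand beside 11.1% and 8.35% of all genes compared. The 23 became 12 without TP2, 15 without TP4 and 12 without GEM1, TP2 and TP4 together. In the lists described here, Flt1, Spry2, Spry4, Prps1 and Wdr33 passed as higher after GC correction alone, and Flt4, Cpsf4, Arntl, Per2 and Nr1d1 lost their calls after it.

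Among 19 ligands, relatives and co-receptors of the 3 receptors, 5 rose and 1 fell, and the median log2 fold change was 0.52. Kitl, the ligand of Kit, rose 5.83-fold, from 4.01 ± 2.66 CPM (SD, n = 9) to 23.4 ± 19.2 CPM (SD, n = 4; edgeR adjusted p = 0.00245). The Tp-BCC tumors were uneven for Kitl and overlapped the induced ones. The lymphatic growth factor genes Vegfd and Vegfc rose 4.17-fold (edgeR adjusted p = 0.00227) and 3.55-fold (edgeR adjusted p = 0.00725). Pdgfrb, the sister receptor of Pdgfra found on pericytes and fibroblasts, rose 2.37-fold (edgeR adjusted p = 0.00306), with no overlap. Flt4, the receptor for Vegfc and Vegfd, rose 2.69-fold (edgeR adjusted p = 0.0402) and lost that call in 8 of the 13 fits that left out 1 tumor, among them those without TP2 and TP4. Pdgfc, a ligand of Pdgfra, fell 2.46-fold (edgeR adjusted p = 0.0150), a call lost without TP2. The other main ligands, Pdgfa and Vegfa, had log2 fold changes of 0.54 (edgeR adjusted p = 0.200) and −0.08 (edgeR adjusted p = 0.878).

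Among 15 genes commonly switched on by ERK signalling, 4 rose and 1 fell, with a median log2 fold change of 0.27. The transcription factor gene Etv1 rose 4.76-fold (edgeR adjusted p = 0.00872). Ccnd1, the gene of cyclin D1, rose 1.81-fold with no overlap (edgeR adjusted p = 0.00957), though not when TP2 was left out. The feedback genes Spred2 and Dusp4 rose 2.35-fold and 1.92-fold (edgeR adjusted p = 0.0418 and 0.0285), and lost the call without TP2 and without TP4, among other tumors. The ERK phosphatase gene Dusp5 fell by 1.94 on the log2 scale (edgeR adjusted p = 0.00812), with all Tp-BCC tumors below all GEM-BCC tumors. The list thus did not move in one direction.

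Partners of the other members mostly did not pass. Of 12 cleavage and polyadenylation genes, which work with Fip1l1, 4 rose: Cpsf1 2.01-fold, Cstf1 1.65-fold, Nudt21 1.59-fold and Cpsf4 1.52-fold (edgeR adjusted p = 0.00996, 0.0186, 0.0236 and 0.0489). The last 3 lost the call without TP2. Of 11 purine synthesis genes besides Ppat and Paics, Impdh1 alone rose, 2.21-fold (edgeR adjusted p = 0.00700). Among 15 clock genes 2 rose and 2 fell. Bhlhe41, a repressor of the clock, fell by 2.96 (edgeR adjusted p = 7.57e-05) and Arntl, the partner of Clock, by 0.76 on the log2 scale (edgeR adjusted p = 0.0319). Per2 and Nr1d1 rose 1.64-fold and 1.69-fold (edgeR adjusted p = 0.0428 and 0.0482). The calls of Arntl, Per2 and Nr1d1 were lost without TP2, without TP4 (among other tumors) and after GC correction.

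Of 10 cohesin genes, Cdca5 alone rose, 2.48-fold (edgeR adjusted p = 0.00901). Among 9 signal recognition particle genes, Srp54a fell by 3.64 (edgeR adjusted p = 0.00643), which is uncertain because its near-identical copies can share its reads. Of 8 exocyst genes none passed with edgeR, and the 2 with the highest mean CPM, Exoc7 and Exoc6b, had log2 fold changes of 0.13 and −0.61. Of the 106 partner genes, 38 had an unadjusted p below 0.05.

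Markers of the cells in which Kit, Pdgfra and Kdr are best known were summed for each tumor, without GC correction. In bulk tumors, fewer cells of a type and less RNA per cell cannot be told apart. The 10 endothelial markers summed to 163 to 362 CPM in induced and 522 to 857 CPM in transplanted tumors. All 10 were above 0 and 5 rose, led by Eng (4.02-fold, edgeR adjusted p = 1.33e-04), Tie1 (3.14-fold, edgeR adjusted p = 0.00271) and Esam (2.62-fold, edgeR adjusted p = 0.00628). Cdh5 rose 2.44-fold (edgeR adjusted p = 0.00116) and Emcn 2.16-fold (edgeR adjusted p = 0.0443, lost in 11 of 13 fits without 1 tumor). After GC correction Emcn passed with a log2 fold change of 1.63 (edgeR adjusted p = 0.0037). Kdr was higher by 2.40-fold beside these genes. Among the transplanted tumors TP4 had the highest endothelial sum, 857 CPM, and the lowest Kdr, 30.5 CPM, both before GC correction. After GC correction the relative level of Kdr was 1.42 on the log2 scale in TP4, beside 1.45 to 1.79 in TP1 to TP3. The part of these cells in the level of Kdr was not tested.

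The 10 fibroblast markers summed to 13091 to 52060 CPM in induced and 15938 to 32149 CPM in transplanted tumors, with overlap. Fbln1, Pdgfrb and Thy1 rose 3.69-fold, 2.37-fold and 2.35-fold (edgeR adjusted p = 0.00269, 0.00306 and 0.0149), and the last lost the call without TP2 and without TP4. Dpt fell by 1.80 on the log2 scale (edgeR adjusted p = 0.00384), as did the collagen gene Col1a1 by 1.12 (edgeR adjusted p = 0.0497, lost in 9 of 13 fits without 1 tumor). After GC correction 3 fibroblast markers passed as higher and 3 as lower. Col1a1 was then at −1.53 (edgeR adjusted p = 0.00374) and Col1a2 at −0.94 (edgeR adjusted p = 0.0343). The fibroblast genes thus moved both ways while Pdgfra was higher in 3 of 4 transplanted tumors.

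The 10 mast cell markers with a value summed to 1.75 through a median of 4.22 to 22.0 CPM in induced tumors. The highest of these were GEM5 (22.0 CPM) and GEM3 (9.87 CPM). In TP1 to TP4 the sum was 18.0, 18.6, 8.56 and 20.7 CPM, and Fcer1a had no counts in the transplanted tumors. None of the 6 compared passed with edgeR, though all 6 were above 0. The highest, the mast cell protease gene Cpa3, had a log2 fold change of 2.11 (edgeR adjusted p = 0.0514), and it passed after GC correction at 2.83 (edgeR adjusted p = 0.0107). Gata2 had 1.48 (edgeR adjusted p = 0.133) and Mcpt4 1.32 (edgeR adjusted p = 0.180). The 6 melanocyte markers with a value summed to 4.43 to 20.9 CPM and 2.43 to 7.42 CPM. Of the 3 compared, none passed with edgeR: Mitf had −1.40 (edgeR adjusted p = 0.0931) and Pmel 0.15 (edgeR adjusted p = 0.847). Per kilobase of transcript, Kit ran from 0.480 to 1.37 CPM in GEM-BCC and from 11.6 to 28.7 CPM in Tp-BCC tumors. On the same scale the mast cell markers summed to 0.781 to 10.9 CPM and 4.84 to 11.8 CPM, and the melanocyte markers to 3.47 to 11.5 CPM and 2.48 to 4.18 CPM, in the same order. The groups lay apart for Kit and overlapped for both marker sums, whose part in its level was not tested.

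Of the 10 basaloid epithelial markers of the tumors themselves none passed with edgeR, and they summed to 12609 to 18677 CPM in GEM-BCC and 9750 to 22341 CPM in Tp-BCC tumors. This uncorrected sum was 10393, 18147, 9750 and 22341 CPM in TP1 to TP4, higher in TP2 and TP4, whose levels rose with GC content. Krt5, a keratin of basal cells, and Krt17 had the highest mean CPM. Their log2 fold changes were −0.18 (edgeR adjusted p = 0.687) and 0.54 (edgeR adjusted p = 0.147). Krt14, the partner keratin of Krt5, had −0.61 (edgeR adjusted p = 0.204) and passed as lower after GC correction, at −1.02 (edgeR adjusted p = 0.0145). The Schwann cell and neural markers summed to 81.4 to 282 CPM and 118 to 243 CPM, and none of 6 passed with edgeR, the highest in mean CPM being Ngfr (log2 fold change 0.40, edgeR adjusted p = 0.515) and Mbp (−0.91, edgeR adjusted p = 0.248). T cell markers summed to 6.03 to 17.0 CPM and 5.81 to 14.0 CPM, and Zap70 fell by 2.61 on the log2 scale (edgeR adjusted p = 0.0178). Skeletal muscle markers reached 166 CPM in TP4, against 9.58 to 27.5 CPM in TP1 to TP3 and at most 20.6 CPM in GEM-BCC tumors. Of these markers Des rose 7.50-fold (edgeR adjusted p = 0.00302). Their part in the levels of the chromosome 5 genes was not tested.

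**Figure D5:**
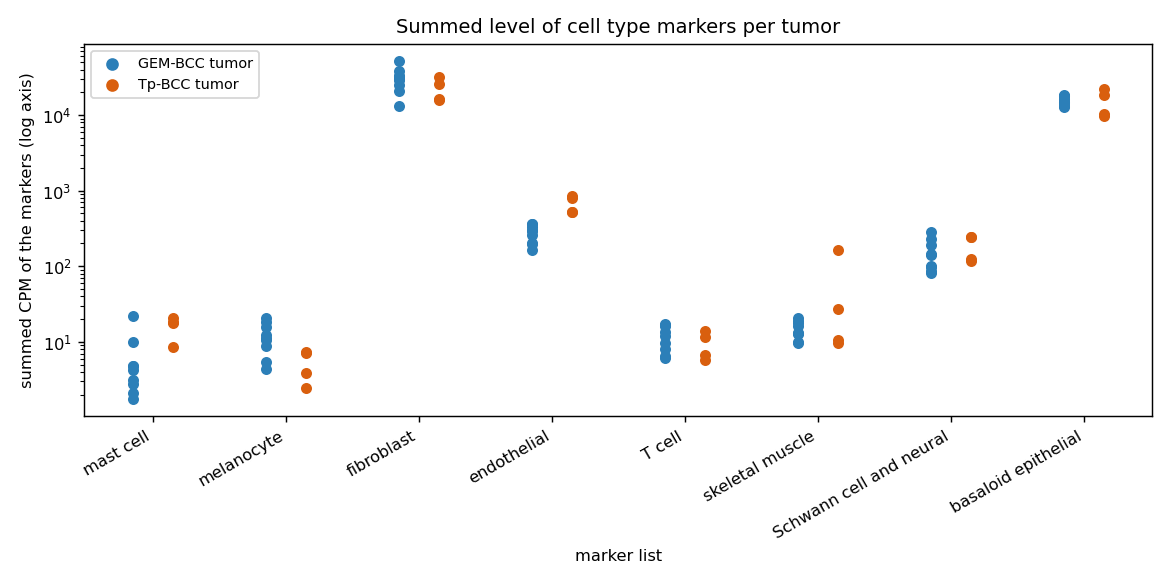
Summed level of each list of cell type markers in every tumor, in CPM on a log axis and without GC correction, with GEM-BCC tumors in blue and Tp-BCC tumors in orange. Endothelial markers are the one list in which all 4 Tp-BCC tumors (522 to 857 CPM) lie above all GEM-BCC tumors (163 to 362 CPM).

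Among the 9 induced tumors alone, the genes outside the stretch whose log2 CPM was most like that of Kit were Cd38, Uxs1, Cadm1, Emp1 and Map7d2, with Pearson correlations of 0.90, 0.90, 0.89, 0.89 and 0.89. These are descriptions over 9 tumors from 7 mice and were picked out of all genes compared. Between the models Map7d2 and Emp1 had log2 fold changes of 1.49 and 0.90, Uxs1 of 0.12, Cd38 of −0.01 and Cadm1 of −2.16, beside 4.32 for Kit. For Pdgfra they were 4833420G17Rik, Slc30a5, Slc38a9, Pakap and Bicc1, with correlations of 0.89, 0.88, 0.86, 0.85 and 0.85. All 5 of these had log2 fold changes below 0 between the models, from −0.89 to −0.04.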

How the data were processed

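Poly(A)-selected RNA was sequenced and the authors deposited RSEM expected counts per gene for each tumor (SOAPnuke filtering per the study's methods; Bowtie2 2.3.4.3, RSEM 1.3.1 and GRCm39 per the submitters' processing notes). Totals ran from 28075317 to 32629102 in the induced and from 15388027 to 17494912 in the transplanted tumors. The expected counts were rounded to whole numbers. Genes with a value in all 13 tumors and 10 or more counts in 4 or more tumors were normalised by TMM and fitted with edgeR 4.0.16 (R 4.3.3; robust quasi-likelihood test, 2-sided, Benjamini-Hochberg), a script tested on simulated data. CPM values use the TMM library sizes, and log2 CPM a prior count of 2. GC content and length are medians over protein-coding GENCODE vM21 transcripts, and the GC trend was a lowess curve of span 0.3 per tumor. Gene order and promoters came from RefSeq GRCm38.p6, and strands and overlaps from GENCODE vM21. The members and lists were chosen with earlier results of these data known. Values are given in full for Kit, Pdgfra, Kdr and the members with the 5 highest and 3 lowest fold changes, and per list for up to 5 genes past the test or the 2 most abundant; other values were chosen after they were seen. P-values measure the spread between tumors, some from 1 mouse. Alternatives included DESeq2 1.42.0 and those named in the closing section. Columns of other samples numbered 0. The result of a further list of partner genes, included in the totals over lists, is not reported here.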

Additional observations from a re-analysis of the deposited data

Results flagged for a closer look

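Of 22 sets of tumors examined (11 measures, each within the 4 Tp-BCC and within the 9 GEM-BCC tumors), 2 held a tumor whose gap to its nearest neighbour exceeded the 95% critical value of Dixon's test, and chance alone gives about 1 in 20. Pdgfra was at 8.64 on the log2 CPM scale (399 CPM) in GEM9, against 7.50 to 8.07 in the other 8 induced tumors. Fryl was at 5.47 on the log2 CPM scale (44.3 CPM) in TP4, against 6.81 to 6.98 in the other transplanted tumors. After GC correction its relative level was −0.21, 0.36, −0.05 and −0.46 in TP1 to TP4, all within the GEM-BCC range of −0.87 to 1.02.

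Atp10d, a gene inside the interval and outside the list, was filled in for the induced model alone, with a median count of 950 (range 253 to 1139), and an empty entry in the Tp-BCC tumors. It could not be compared, and whether the empty entry stands for no reads was not tested.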

How the results depend on the processing

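The median log2 fold change of the stretch stayed above 0 in every alternative. It was 0.94 after GC correction, 0.97 without GEM1, TP2 and TP4 together (a choice made after seeing the data) and 0.43 (without TP3) to 0.80 (without TP4) when each tumor was left out in turn. Kit ran from 3.93 to 4.45, Pdgfra from 1.87 to 2.44 and Kdr from 1.15 to 1.42 in those fits. The 801 genes called between the models became 439 when 10 counts were required in 10 tumors, 472 without GEM1, TP2 and TP4, and 594 to 853 when 1 tumor was left out. Without a filter there were 1013 calls, 529 of them higher, against 339 of 801 higher in the fit reported. DESeq2 gave 907 and entering empty values as 0, chosen after seeing the data, gave 862. The 6 partner genes called were 5 to 7 when 1 tumor was left out. With the replicate block (the tumor number as a block), 178 genes and 1 partner gene were called and the median of the stretch was 0.71. The numbers are only names: deviations of same-numbered tumors from their group means correlated at −0.38, −0.12, −0.10 and −0.18, and GEM5 to GEM9 have no partner. With 4 Tp-BCC tumors of 1 line at lower depth than the GEM-BCC tumors, genes of few counts, such as Spata18, are the least precise.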
